A study of Mus musculus with 6 samples.

Results

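The T cell receptor reaches the cell surface only together with the CD3 chains, and the genes described here encode that complex and its first signalling steps. They were read on Affymetrix mouse expression arrays in sorted bone marrow progenitors that did or did not carry an active Notch2 transgene. Members were all probe sets annotated to exactly 1 of 9 symbols (Cd3d, Cd3e, Cd3g, Cd247, Ptcra, Lck, Zap70, Lat and Cd7). This gave 13 of the 45101 probe sets in the table, for 8 of the 9 listed genes (of 18194 genes in all). Lck, the kinase that phosphorylates the CD3 chains, was not analysed here. Cd247 had 4 probe sets, Zap70 had 3 and each of the other 6 genes had 1.

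The 3 ICN2-positive samples came from male Rosa-lsl-ICN2 Mx1-cre+ mice, in which the Mx1-cre recombinase switches on a Rosa26 transgene for ICN2, the intracellular and constantly active part of Notch2. The 3 ICN2-negative samples came from female Mx1-cre+ littermates, which carry the recombinase but no transgene. All mice were 6 weeks old and had been injected 3 times with polyIC (20 mcg per g), and cells were taken 1 week after the last injection. PolyIC induces interferon, which drives Mx1-cre in many interferon-responsive cell types and not only in the sorted cells. The cells were lineage negative, cKit+ and Sca1-, named myeloerythroid progenitors in the labels, which do not list the lineage antibodies. Sex and genotype cannot be told apart in any comparison. Whether replicates of a group were separate animals is not stated in the labels, so each p-value reflects the spread among these 6 samples, part of which may be technical. In a bulk sample, more cells of a type and more RNA per cell cannot be told apart.

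In developing T cells, CD3 gamma, delta and epsilon and the zeta chain carry immunoreceptor tyrosine-based activation motifs. The kinase Lck phosphorylates these motifs, ZAP-70 docks on them, and ZAP-70 then phosphorylates the membrane scaffold LAT. Before the T cell receptor alpha chain exists, the pre-TCR alpha chain (Ptcra) pairs with the beta chain and signals through the same CD3 complex. Notch signalling is required for progenitors to enter the T lineage, and Ptcra is a known target of Notch in thymocytes. LAT also works in mast cells, platelets and NK cells, and CD7 is a surface glycoprotein of T and NK cells.

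The sequences upstream of 5 members are shown because Notch acts on DNA through RBPJ, whose core motif is TGGGAA, and because Cd3g, Cd3d and Cd3e lie side by side. RefSeq (GRCm38.p6) had promoter windows for 8 of the 9 listed genes, in 11 windows, and none for Cd7. Each run below is the 250 bases before the annotated start site, on the strand of the gene, 5′ to 3′, and capitals mark TGGGAA or its reverse complement TTCCCA. Cd3g lies at chr9:44980432-44980681 (minus strand), Cd3d at chr9:44981536-44981785 (plus strand), Cd3e at chr9:45009612-45009861 (minus strand), Lat at chr7:126369569-126369818 (minus strand) and Ptcra at chr17:46763713-46763962 (minus strand).
Cd3g: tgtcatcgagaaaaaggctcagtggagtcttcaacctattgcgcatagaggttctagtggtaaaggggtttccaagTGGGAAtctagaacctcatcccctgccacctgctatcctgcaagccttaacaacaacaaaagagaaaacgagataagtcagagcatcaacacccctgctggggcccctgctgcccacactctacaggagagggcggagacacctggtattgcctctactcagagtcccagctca
Cd3d: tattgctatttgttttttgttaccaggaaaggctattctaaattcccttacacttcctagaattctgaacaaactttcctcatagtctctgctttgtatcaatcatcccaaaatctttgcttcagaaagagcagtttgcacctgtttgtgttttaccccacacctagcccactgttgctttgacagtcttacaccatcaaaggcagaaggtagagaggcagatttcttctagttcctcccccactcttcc
Cd3e: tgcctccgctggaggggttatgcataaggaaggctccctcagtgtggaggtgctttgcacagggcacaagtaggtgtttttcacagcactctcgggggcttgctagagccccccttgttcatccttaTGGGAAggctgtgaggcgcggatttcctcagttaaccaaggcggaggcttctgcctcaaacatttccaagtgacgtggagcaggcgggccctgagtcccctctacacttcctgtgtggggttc
Lat: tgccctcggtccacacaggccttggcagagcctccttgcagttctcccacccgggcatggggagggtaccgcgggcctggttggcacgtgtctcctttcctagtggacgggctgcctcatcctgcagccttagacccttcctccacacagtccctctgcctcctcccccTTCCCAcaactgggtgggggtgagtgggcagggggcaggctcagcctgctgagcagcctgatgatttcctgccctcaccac
Ptcra: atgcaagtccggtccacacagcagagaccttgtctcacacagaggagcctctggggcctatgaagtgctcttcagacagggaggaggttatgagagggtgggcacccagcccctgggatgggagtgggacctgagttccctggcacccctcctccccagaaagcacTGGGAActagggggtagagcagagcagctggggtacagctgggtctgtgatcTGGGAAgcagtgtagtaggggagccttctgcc

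The Cd3g and Cd3d genes point away from each other, with 1355 bases between their start sites, and the Cd3e start site lies 27825 bases beyond that of Cd3d. Searched on both strands, TGGGAA occurred 1 time each upstream of Cd3g, of Cd3e and of Lat, and 2 times upstream of Ptcra, at 84 and 32 bases before the start site. It did not occur upstream of Cd3d or Cd247, and it occurred 1 time each in 1 window of Zap70 and 1 window of Lck. Of 32851 windows of the same length in the table, 21.6% held it. The E-box CANNTG, bound by E proteins, occurred 3 times upstream of Cd3g, 1 time each upstream of Cd3d and Cd3e, and 2 times each upstream of Lat and Ptcra, against 66.2% of all windows with at least 1. In the Cd3g window 1 E-box overlaps the TGGGAA match. The TCF/LEF core CTTTGA occurred 2 times upstream of Cd3d and not in the other 4 windows shown (13.8% of all windows), and the RUNX core TGTGGT occurred in none of the 5 (14.05% of all windows). These matches describe letters in the window and do not show binding.

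Values are log2 of the authors' RMA intensity. Testing required at least 3 of the 6 arrays to exceed their own 40th percentile (5.26 to 5.30 on the log2 scale). Of all probe sets 27424 met this, among them 8 of the 13 members. That percentile is a limit of the filter and not a measured background. Array medians were 6.05 to 6.09 (log2). The array that differed most from its group was ICN2-positive replicate 1, which over all probe sets correlated at 0.984 and 0.988 with the other ICN2-positive arrays, which correlated at 0.995 with each other, while ICN2-negative arrays correlated at 0.994 to 0.995. Its 3′ signal for beta-actin exceeded the 5′ signal by 1.01 on the log2 scale, against 0.71 to 0.85 on the other arrays. The Y-linked gene Eif2s3y averaged 11.36 ± 0.31 in ICN2-positive samples and 3.58 ± 0.29 in ICN2-negative samples (log2 intensity, SD, n = 3 each), as the labelled sexes imply. The brightest Notch2 probe set averaged 13.01 ± 0.07 in ICN2-positive and 12.94 ± 0.02 in ICN2-negative samples and did not pass the test (adjusted p = 0.507, limma), and whether it reads the transgene is not known. Of 8 myeloerythroid progenitor genes, all tested, none passed limma's adjusted threshold of 0.05 or an unadjusted p under 0.05. Kit averaged 10.57 ± 0.37 in ICN2-positive and 10.45 ± 0.06 in ICN2-negative samples, and Myb averaged 13.52 ± 0.07 in ICN2-positive and 13.54 ± 0.0026 in ICN2-negative samples. Cebpa, Cd34 and Mpo had lower means in ICN2-positive samples without overlap (differences of -1.74, -1.35 and -1.02 on the log2 scale), and Cebpa read 8.73, 12.26 and 11.96 in ICN2-positive replicates 1, 2 and 3, against 12.65 to 12.80 in ICN2-negative samples. Gata1, Klf1 and Gata2 had higher means in ICN2-positive samples, by 0.08, 0.16 and 0.24, with the groups overlapping. The mean was higher for 4 of the 8 genes, and their median difference was 0.03. The summed linear intensity of the 8 genes was 34213, 53411 and 51419 in ICN2-positive replicates 1, 2 and 3, against 57049 to 58466 in ICN2-negative samples. The part of this makeup in the results below was not tested.

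The question put to the members was whether active Notch2 changed their expression. The CD3 gamma, delta and epsilon genes, Lat and Cd7 had higher means in ICN2-positive cells, by 1.25 to 2.31 on the log2 scale, while both tested Zap70 probe sets had means within 0.22 of the ICN2-negative mean. None of the 8 tested member probe sets passed an adjusted p of 0.05 in limma, where 2.65% of all tested probe sets passed in either direction. With no filter none of the 13 passed, where 1.27% of all probe sets did. At an unadjusted p under 0.05, 4 of the 8 did (Cd3e, Cd3g, Lat and Cd7), all higher in ICN2-positive cells, against 24.3% of all tested probe sets in either direction and 14.4% higher. The ICN2-positive mean was higher for 6 of the 8, against 55.6% of all tested probe sets. The groups did not overlap for 3 of the 8 (Cd3e, Lat and Cd7, all higher), against 19.7% of all tested probe sets. The median difference over the 8 was 1.30 on the log2 scale and over all tested probe sets 0.03. Over all 13 member probe sets it was 0.44, and over all probe sets with no filter 0.01. Cd3d and Cd3g exceeded the filter's limit on 3 of 3 ICN2-positive and 1 of 3 ICN2-negative arrays, and Cd3e on 3 of 3 and 2 of 3. Members that passed mainly through the group where they are high tend to differ by construction, so these counts are a description and no support.

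**Figure D1:**
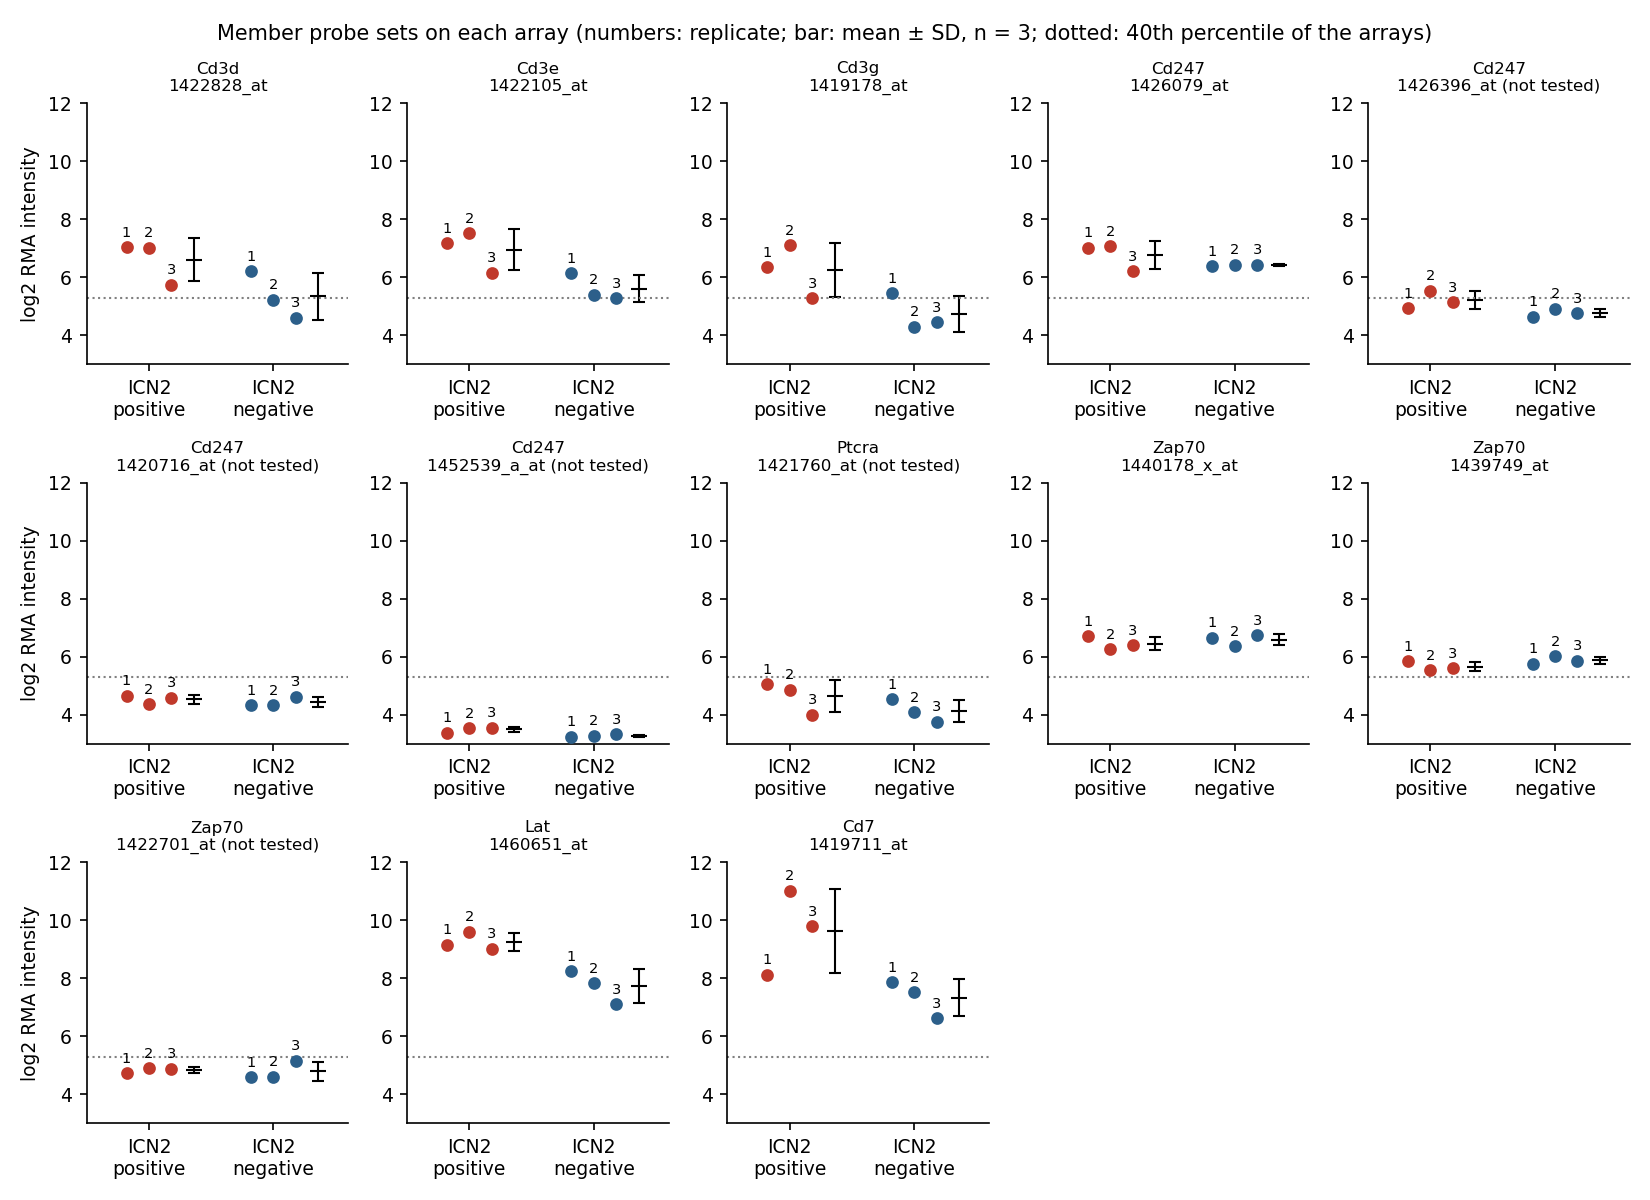
Each panel is 1 member probe set, with log2 RMA intensity on the y axis and ICN2-positive (red) left of ICN2-negative (blue) arrays. Points are arrays numbered by replicate, the bar is the mean ± SD (n = 3), and the dotted line is the mean 40th percentile of the arrays. Lat and Cd7 lie above the line on all 6 arrays, and Ptcra lies below it on all 6.

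Cd3d encodes CD3 delta. Its log2 intensity was 7.04, 7.02 and 5.74 in ICN2-positive replicates 1, 2 and 3, against 6.21, 5.23 and 4.60 in ICN2-negative replicates 1, 2 and 3. ICN2-positive replicate 3 lay below ICN2-negative replicate 1, so the groups overlapped. The difference was 1.25 ± 0.53 (SE, n = 3 each), with a 95% interval of -0.05 to 2.56 and an adjusted p of 0.22 in limma.

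Cd3e encodes CD3 epsilon, which pairs with both delta and gamma. It read 7.17, 7.52 and 6.16 in ICN2-positive replicates 1, 2 and 3, against 6.14, 5.40 and 5.27 in ICN2-negative replicates 1, 2 and 3. The groups did not overlap, but ICN2-positive replicate 3 and ICN2-negative replicate 1 lay close together. The difference was 1.35 ± 0.41 (SE), which is 2.54-fold (95% interval 1.26 to 5.14), with an adjusted p of 0.131 in limma.

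Cd3g encodes CD3 gamma. It read 6.34, 7.12 and 5.28 in ICN2-positive replicates 1, 2 and 3, against 5.46, 4.30 and 4.44 in ICN2-negative replicates 1, 2 and 3. ICN2-positive replicate 3 again lay below ICN2-negative replicate 1. The difference was 1.52 ± 0.54 (SE, 95% interval 0.19 to 2.84), with an adjusted p of 0.166 in limma, and no fold is given since 2 of 3 ICN2-negative arrays lay under the filter's limit. With an offset of 32 added to the intensity the differences of Cd3d, Cd3e and Cd3g were 0.82, 0.96 and 0.90, and with arrays weighted they were 0.75, 0.84 and 0.89, on the log2 scale.

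Within each group the CD3 gamma, delta and epsilon transcripts were high and low on much the same arrays. ICN2-positive replicates 1 and 2 were high and replicate 3 was low for all 3 genes, and ICN2-negative replicate 1 was the highest of its group for all 3. The lowest ICN2-negative array was replicate 3 for Cd3d and Cd3e but replicate 2 for Cd3g. To describe likeness over all arrays, log2 values were centred on each gene's mean over the 6 arrays and the root mean square difference between genes was taken. The measure keeps the difference between groups, so genes with a like difference rank near each other by construction. Among 12837 genes tested, the gene nearest to Cd3d was Cd3e (0.25 on the log2 scale), the nearest to Cd3e was Cd3g (0.21) and the nearest to Cd3g was Cd3e (0.21). Next to Cd3d after Cd3e came Bcl11b, a transcription factor of T lineage commitment (0.31), and the small GTPase gene Rras2 (0.33). Asap2, a GTPase-activating protein of ARF, came second for both Cd3e (0.25) and Cd3g (0.31), followed by Cd3d. With 6 arrays and this many genes, near neighbours arise easily, and the measure carries no test.

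Bcl11b read 7.95, 7.57 and 5.73 in ICN2-positive replicates 1, 2 and 3, against 6.84, 5.38 and 4.90 in ICN2-negative replicates 1, 2 and 3. Like the CD3 genes it was low in ICN2-positive replicate 3 and highest of its group in ICN2-negative replicate 1. Its difference of 1.38 ± 0.76 did not pass the test (adjusted p = 0.294, gene level, limma). The genes that flank the CD3 cluster were taken by position, after the values were seen. Of the 3 protein-coding genes on each side, 4 were tested and none passed: Kmt2a differed by 0.19 ± 0.13, Atp5l by -0.04 ± 0.06, Ube4a by 0.17 ± 0.16 and Mpzl3 by 0.19 ± 0.19 (SE, adjusted p = 0.368 to 0.704, limma).

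**Figure D2:**
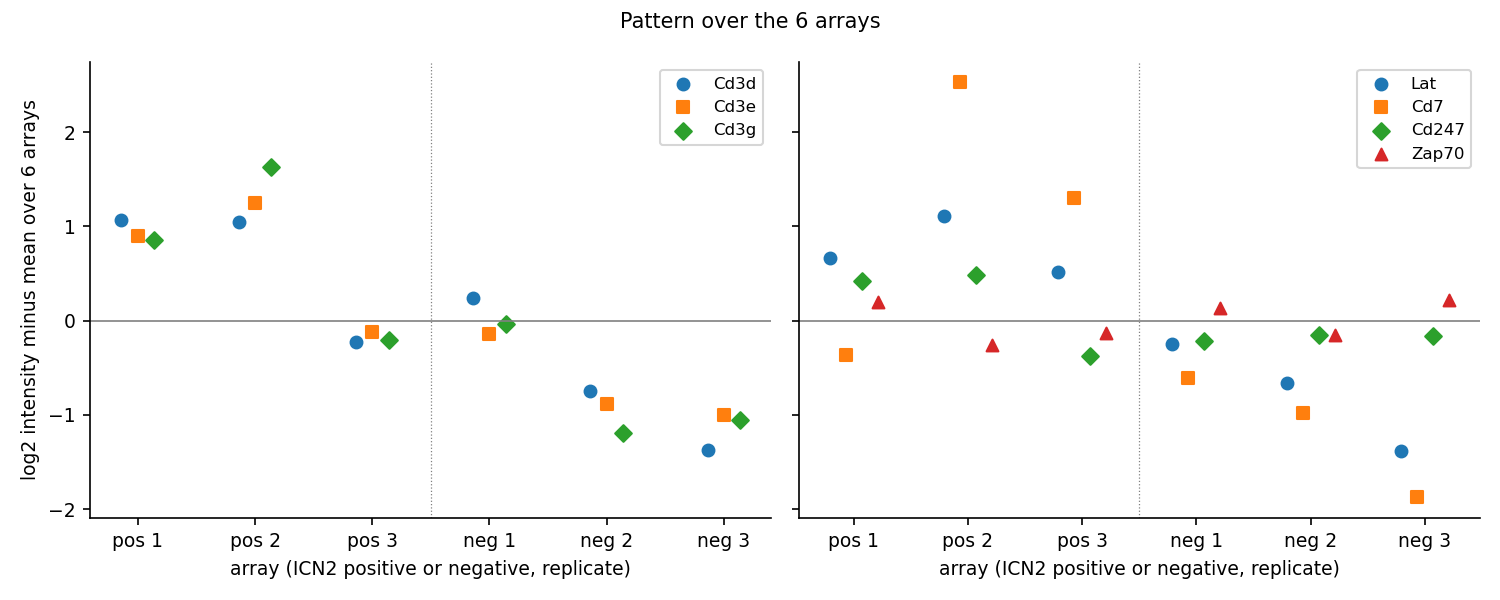
Log2 intensity minus the gene's mean over the 6 arrays (y axis) on each array (x axis, ICN2-positive left, ICN2-negative right), for the CD3 gamma, delta and epsilon genes (left panel) and for Lat, Cd7, Cd247 and Zap70 (right panel). Cd3d, Cd3e and Cd3g mostly move together, while Cd7 peaks in ICN2-positive replicate 2 and stays near its ICN2-negative level in ICN2-positive replicate 1.

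Cd247 encodes the zeta chain, which brings most of the activation motifs of the receptor. Its brightest probe set read 7.01, 7.08 and 6.21 in ICN2-positive replicates 1, 2 and 3, against 6.37, 6.44 and 6.43 in ICN2-negative replicates 1, 2 and 3. ICN2-positive replicates 1 and 2 lay above all ICN2-negative arrays and replicate 3 lay below them all. The difference was 0.36 ± 0.24 (SE, 95% interval -0.23 to 0.94, adjusted p = 0.413, limma). The other 3 Cd247 probe sets failed the filter. Of these, the brightest read 4.94, 5.53 and 5.15 in ICN2-positive and 4.64, 4.92 and 4.76 in ICN2-negative replicates 1, 2 and 3, and the dimmest read 3.38 to 3.56 in ICN2-positive and 3.24 to 3.32 in ICN2-negative samples. Neither of these 2 overlapped between groups, and both lay under the filter's limit on all ICN2-negative arrays. Over all 13 member probe sets, 5 did not overlap and were higher in ICN2-positive cells, against 14.5% of all probe sets. The remaining Cd247 probe set read 4.36 to 4.66 in ICN2-positive and 4.32 to 4.62 in ICN2-negative samples, with the groups overlapping.

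Ptcra encodes the pre-TCR alpha chain. Its single probe set read 5.06, 4.86 and 4.0003 in ICN2-positive replicates 1, 2 and 3, against 4.54, 4.08 and 3.76 in ICN2-negative replicates 1, 2 and 3. All 6 values lay below the 40th percentile of their arrays, so Ptcra failed the filter and no fold is given. The groups overlapped. Fitted without the filter, the adjusted p was 0.478 in limma.

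Zap70 encodes the tandem-SH2 kinase recruited to phosphorylated CD3 and zeta. Its brightest probe set, of the _x_at type, read 6.71, 6.26 and 6.39 in ICN2-positive replicates 1, 2 and 3, against 6.65, 6.37 and 6.74 in ICN2-negative replicates 1, 2 and 3. The next probe set read 5.85, 5.53 and 5.60 in ICN2-positive replicates 1, 2 and 3, against 5.76, 6.02 and 5.86 in ICN2-negative replicates 1, 2 and 3. Values overlapped between groups in both. Their differences were -0.13 ± 0.16 (95% interval -0.52 to 0.26, adjusted p = 0.655) and -0.22 ± 0.12 (95% interval -0.51 to 0.07, adjusted p = 0.316, limma). Neither interval reaches the difference seen for Lat, but the second probe set read not far above the filter's limit. Whether these probe sets could register such a rise was not tested. Probes of an _x_at set can also match other transcripts. The dimmest Zap70 probe set read 4.73 to 4.89 in ICN2-positive and 4.59 to 5.15 in ICN2-negative samples and failed the filter.

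Lat encodes the adaptor that links ZAP-70 to phospholipase C gamma and Ras. It read 9.16, 9.61 and 9.01 in ICN2-positive replicates 1, 2 and 3, against 8.25, 7.83 and 7.11 in ICN2-negative replicates 1, 2 and 3. Every ICN2-positive array lay above every ICN2-negative array. The difference was 1.53 ± 0.32 (SE), which is 2.89-fold (95% interval 1.67 to 4.99), and the adjusted p of 0.0735 in limma missed the threshold. Lat did pass when the variance model held an intensity trend (adjusted p = 0.0476) or when arrays were weighted (adjusted p = 0.0321). Of 27424 probe sets, 1216 passed with the trend and 3970 with weighted arrays, against 728 as reported. In the weighting, ICN2-positive replicate 3 had a weight of 4.03 and replicate 1 of 0.29.

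The genes nearest to Lat in pattern were Cdcp1, a membrane protein phosphorylated by Src kinases (0.15), Plxdc2 (0.17) and Nrgn, a calmodulin-binding protein (0.17, root mean square difference on the log2 scale). Cdcp1 read 6.29 to 6.75 in ICN2-positive cells, against 4.32 to 5.08 in ICN2-negative cells, under the filter's limit on all 3 arrays. Genes chosen for their likeness to Lat share its difference by construction. Among the neighbours of Lat, Cd3e stood at place 40, Cd3d at place 72 and Cd3g at place 140 of the genes tested. In turn, Lat stood at place 6 for Cd3d, 12 for Cd3e and 9 for Cd3g. Since LAT is used outside T cells, markers of other cells that carry it were set beside it. The summed linear intensity of 8 mast cell and basophil markers was 3063 to 25807 in ICN2-positive and 13896 to 17442 in ICN2-negative samples, and the brightest of them, Mcpt8, read 9.70, 13.77 and 13.52 in ICN2-positive replicates 1, 2 and 3 and 12.75, 12.93 and 12.49 in ICN2-negative ones. Of the 8, Mcpt4, a mast cell protease, passed: it was at least 7.05-fold higher in ICN2-positive cells against the filter's limit (adjusted p = 0.0183, gene level, limma). Mcpt4 met the filter only through its ICN2-positive arrays. Without ICN2-positive replicate 1, Mcpt8 passed too (0.92, adjusted p = 0.043), and the median difference of the 8 was 0.57, against -0.17 with all arrays. The sum over 7 megakaryocyte markers was 1186 to 3502 in ICN2-positive and 1917 to 7584 in ICN2-negative samples, with 1 of the 7 (Gp6) below the 40th percentile on all arrays. Pf4, the brightest of them, averaged 7.73 ± 1.62 in ICN2-positive and 10.67 ± 1.29 in ICN2-negative samples. The part of these cells in the Lat values was not tested.

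Cd7 had the largest difference of the members. It read 8.12, 11.02 and 9.79 in ICN2-positive replicates 1, 2 and 3, against 7.87, 7.51 and 6.61 in ICN2-negative replicates 1, 2 and 3. The groups did not overlap, but ICN2-positive replicate 1 lay only just above ICN2-negative replicate 1. The difference was 2.31 ± 0.76 (SE), which is 4.95-fold (95% interval 1.34 to 18.3), with an adjusted p of 0.148 in limma. With ICN2-positive replicate 1 left out it was 3.07 (adjusted p = 0.0543), and with ICN2-positive replicate 2 left out it was 1.62 (adjusted p = 0.21). With array weights, which gave ICN2-positive replicate 3 a weight of 4.03 and replicate 1 a weight of 0.29, Cd7 passed at 2.63 (adjusted p = 0.027). In that fit 3970 of 27424 probe sets passed.

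The 3 genes nearest to Cd7 in pattern were Alox15, a lipoxygenase (0.31), Spon1, an extracellular matrix protein (0.40), and Tek, the angiopoietin receptor (0.42). Among the neighbours of Cd7, Lat stood at place 70, Cd3g at 140, Cd3e at 196 and Cd3d at 325 of the 12837 genes tested. Conversely, Cd7 stood at place 5018 for Cd3g, 5127 for Lat, 10920 for Cd3e and 11271 for Cd3d. The measure keeps the size of each gene's changes, so these places cannot tell a different pattern from a different size. As CD7 is also carried by NK cells, the NK markers were read. Of 7 with a probe set, 5 were tested and none passed an adjusted p of 0.05 in limma, nor an unadjusted p under 0.05. Their summed intensity was 8508, 12426 and 10905 in ICN2-positive replicates 1, 2 and 3, against 11750, 12943 and 13364 in ICN2-negative replicates 1, 2 and 3. Within the ICN2-positive group this is the order of Cd7, and Klrd1 (5.42, 8.74 and 7.38), Klrk1 (4.31, 7.46 and 5.98), Ncr1 (3.73, 5.42 and 4.39) and Klre1 (5.15, 6.20 and 5.37) had it too. The sums of the B cell, megakaryocyte, mast cell and basophil, and myeloerythroid progenitor markers also had that order. It was therefore not particular to NK markers. The ICN2-negative NK sums ran against the order of Cd7 in that group, as did Nkg7 (13.40, 13.54 and 13.62), Klrk1 and Ncr1. Klre1 (5.63, 5.41 and 4.92) had the order of Cd7 there, and Klrd1 (7.48, 8.09 and 5.75) had neither order. The mean differences were 0.66 for Ncr1, 0.25 for Klre1, 0.08 for Klrd1 and -0.81 for Klrk1. Nkg7, the brightest of them, differed by -0.30 ± 0.15 (adjusted p = 0.243, limma), and Eomes lay below the 40th percentile on all 6 arrays. The part of NK cells in the Cd7 values was not tested.

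**Figure D3:**
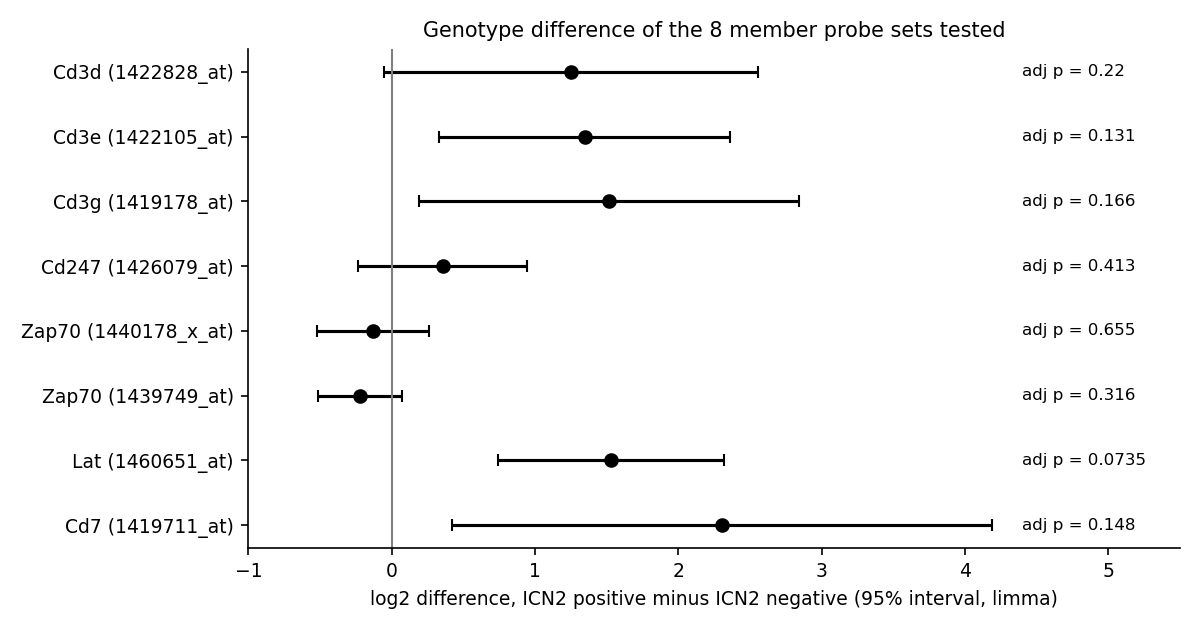
Log2 difference of the 8 tested member probe sets, ICN2-positive minus ICN2-negative (points), with 95% intervals from limma (bars) and adjusted p over all tested probe sets at the right. The intervals of Cd3e, Cd3g, Lat and Cd7 lie above 0, no adjusted p is under 0.05, and the Zap70 intervals span 0.

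With ICN2-positive replicate 3 left out the differences were 1.68 for Cd3d, 1.74 for Cd3e, 2.00 for Cd3g and 0.63 for the brightest Cd247 probe set, with adjusted p of 0.0735 to 0.19 in limma in a fit where 0.445% of probe sets passed in either direction and 0.277% as higher. Without ICN2-positive replicate 2 they were 1.04, 1.06, 1.08 and 0.20. None of the 8 passed with any single array left out, where 95 to 860 of all probe sets passed. Without ICN2-positive replicate 1, the array that differed most from its group, 3.14% of all tested probe sets passed in either direction and 1.59% passed as higher in ICN2-positive cells.

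**Figure D4:**
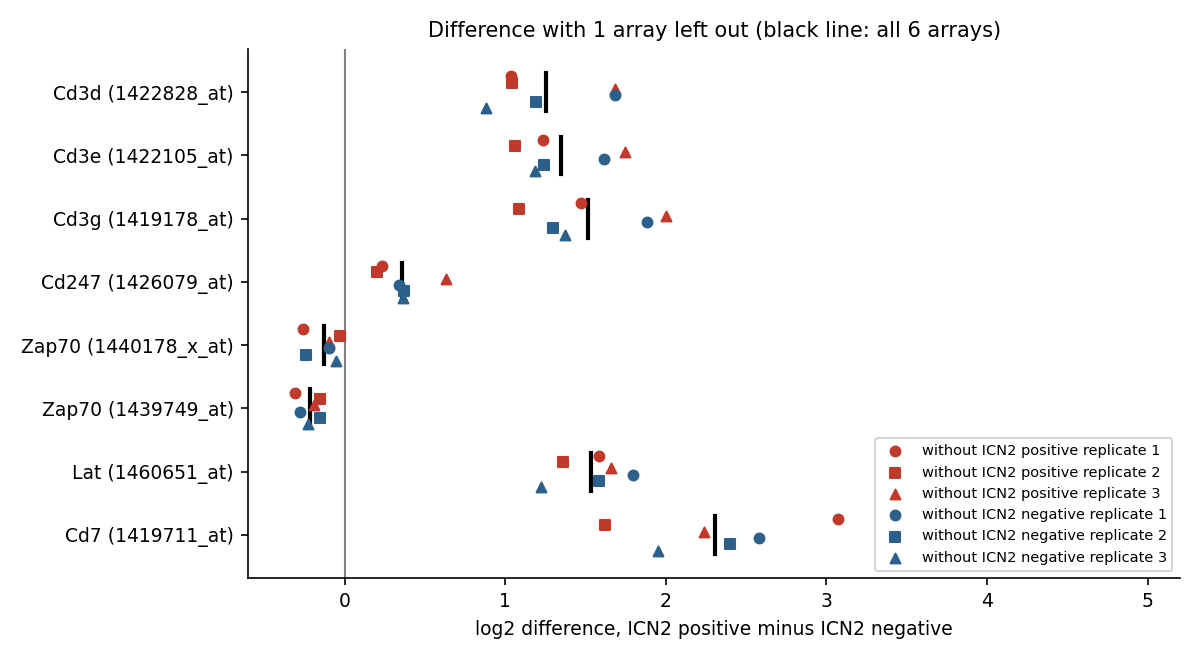
Log2 difference of each tested member probe set, ICN2-positive minus ICN2-negative, with all 6 arrays (black line) and with each single array left out (red for ICN2-positive, blue for ICN2-negative arrays). No difference changes sign. Cd7 moves between 1.62 and 3.07 and Cd3e and Cd3g are largest without ICN2-positive replicate 3.

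The order of the ICN2-negative arrays in Cd3d, Cd3e, Lat, Cd7 and Ptcra, with replicate 1 highest and replicate 3 lowest, was also the order of their B cell and megakaryocyte markers. Summed over 7 B cell markers, linear intensity was 575, 1737 and 1260 in ICN2-positive replicates 1, 2 and 3, against 8779, 3783 and 2206 in ICN2-negative replicates 1, 2 and 3. Of these markers Ms4a1 and Pax5 lay below the 40th percentile on all arrays, and the brightest, Cd79b, averaged 9.30 ± 1.11 in ICN2-positive and 10.77 ± 0.12 in ICN2-negative samples. None of the 5 tested had a higher ICN2-positive mean, and their median difference was -2.36. Ebf1 differed by -3.11, Blnk by -2.57 and Vpreb1 by -2.36. None passed, and 3 were lower at an unadjusted p under 0.05 in limma (12.2% of all genes). Without ICN2-positive replicate 1, Cd79b passed as lower (adjusted p = 0.0444). The part of cell makeup in the member values was not tested.

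Coreceptor and costimulatory genes of T cells were read beside the CD3 genes. Of 15 coreceptor and costimulatory genes, 11 were tested, none rose and 1 fell at an adjusted p of 0.05 in limma (1 higher and 2 lower at an unadjusted p under 0.05). Of all genes 2.59% passed as higher and 1.78% as lower, and at the unadjusted p 15.3% and 12.2%. The gene that fell was Ly9, a SLAM family receptor of lymphocytes, which averaged 8.09 ± 0.10 in ICN2-positive and 9.06 ± 0.09 in ICN2-negative samples (adjusted p = 0.00758, limma). Icos, an inducible costimulator, read 5.85, 7.32 and 7.15 in ICN2-positive and 5.34, 5.59 and 5.10 in ICN2-negative replicates 1, 2 and 3, and Thy1, a surface marker of mouse T cells, read 7.18, 8.57 and 7.59 in ICN2-positive and 5.87 to 7.12 in ICN2-negative ones. Neither gene overlapped between groups, and neither passed (adjusted p = 0.105 and 0.206). Cd4 read 5.11 to 5.24 in ICN2-positive and 5.45 to 5.73 in ICN2-negative samples, lower without overlap and under the filter's limit on all ICN2-positive arrays. Cd28 was also lower without overlap, at 4.04 to 4.24 in ICN2-positive and 4.44 to 5.60 in ICN2-negative samples, and failed the filter. Cd8b1, Cd5 and Ctla4 lay under that limit on all 6 arrays, and Cd8a averaged 6.21 ± 0.16 in ICN2-positive and 6.04 ± 0.05 in ICN2-negative samples. The summed intensity of the 15 genes was 1803 to 4249 in ICN2-positive and 2360 to 2998 in ICN2-negative samples. Cd27, the brightest of them, read 9.49 to 11.24 in ICN2-positive and 10.12 to 10.48 in ICN2-negative samples on the log2 scale. The median difference of the 11 was 0.17 on the log2 scale, beside 0.02 over all genes. It was -0.16 without ICN2-positive replicate 2 and 0.07 over all 15 genes with no filter. Without ICN2-positive replicate 1, Cd6 and Icos also passed, both higher (adjusted p = 0.00596 and 0.0107), in a fit where 2.91% of all genes passed as higher and 3.08% as lower. The part of T cells in the member values was not tested.

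Of 26 other proximal signalling genes tested, 3 rose and none fell at an adjusted p of 0.05 in limma (8 higher and 3 lower at an unadjusted p under 0.05), against 2.59% of all genes higher and 1.78% lower (15.3% and 12.2% unadjusted). The median difference was 0.07. Rhoh, a haematopoietic GTPase needed for ZAP-70 recruitment, read 11.57, 11.77 and 11.66 in ICN2-positive replicates 1, 2 and 3, against 10.19, 10.29 and 9.86 in ICN2-negative replicates 1, 2 and 3. It rose 2.94-fold, by 1.55 ± 0.13 (adjusted p = 0.00723, limma). Prkcq, protein kinase C theta, which acts downstream of LAT, read 10.72, 10.23 and 9.78 in ICN2-positive and 8.22, 8.63 and 7.84 in ICN2-negative replicates 1, 2 and 3. It rose 4.03-fold, by 2.01 ± 0.30 (adjusted p = 0.0297). Csk, the kinase that restrains Lck, rose 1.46-fold, by 0.55 ± 0.08 (adjusted p = 0.0264). The groups did not overlap for any of these 3 genes, where 19.7% of all tested probe sets were higher without overlap. Genes picked by a small p tend not to overlap by construction. The 3 genes lower at an unadjusted p under 0.05 were Syk (-0.27), Vav1 (-0.41) and Grap2 (-0.60, log2 scale), also without overlap. None of these passed (adjusted p = 0.0892 to 0.176, limma).

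The number of proximal signalling genes that rose was 6 without ICN2-positive replicate 1, where the adaptor Sh2d1a, the Ras activator Rasgrp1 and the phosphatase Ptpn6 joined. Sh2d1a met the filter only through its ICN2-positive arrays. The number was 1 (Rhoh) without ICN2-positive replicate 3 and 1 (Rhoh) without ICN2-negative replicate 2 or 3. Among the 6 Fc receptor partners, which share Syk-family signalling with CD3 in myeloid and mast cells, none passed limma's adjusted threshold and none an unadjusted p under 0.05. Their median difference was -1.02, and -0.08 without ICN2-positive replicate 1. The smallest p was that of Lat2, the LAT-related adaptor of B and myeloid cells, which averaged 7.84 ± 0.95 in ICN2-positive and 8.89 ± 0.32 in ICN2-negative samples (difference -1.05 ± 0.49, adjusted p = 0.233).

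**Figure D5:**
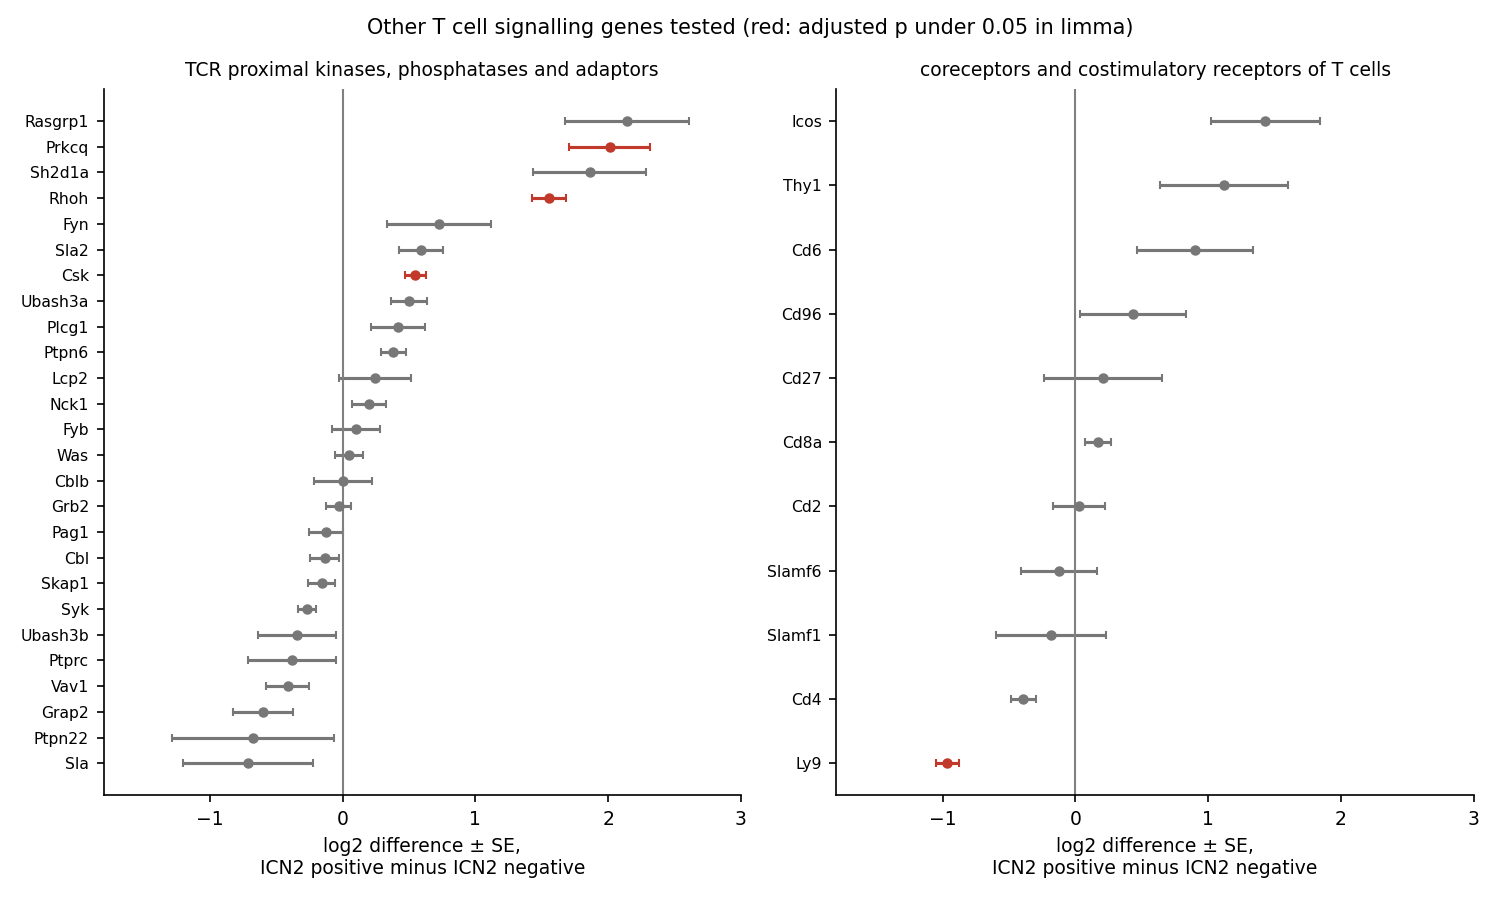
Log2 difference ± SE, ICN2-positive minus ICN2-negative (x axis), of the 26 proximal signalling genes (left panel) and the 11 coreceptor and costimulatory genes tested (right panel), at gene level in limma. Red points passed an adjusted p of 0.05: Prkcq, Rhoh and Csk rose and Ly9 fell.

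Notch-dependent early T lineage genes, some of them already known to differ in these samples, gave 5 that rose and none that fell of 11 tested (6 higher and 0 lower at an unadjusted p under 0.05 in limma), against 2.59% of all genes higher and 1.78% lower (15.3% and 12.2% unadjusted). Hes1 read 7.38, 7.60 and 7.44 in ICN2-positive and 5.96, 5.44 and 5.55 in ICN2-negative replicates 1, 2 and 3, and this Notch target rose 3.54-fold (adjusted p = 0.00723, limma). Il2ra, the CD25 chain that marks the pre-TCR stage in thymocytes, read 8.39, 7.94 and 6.77 in ICN2-positive and 4.16, 4.02 and 4.81 in ICN2-negative replicates 1, 2 and 3. All ICN2-negative Il2ra arrays lay under the filter's limit, which makes it at least 5.33-fold higher against that limit (adjusted p = 0.0231). Notch3 was at least 3.35-fold higher in the same way (adjusted p = 0.00723). Nrarp, which dampens Notch signalling, was 4.45-fold higher (adjusted p = 0.00907), and Dtx1, named after its values were seen, was at least 2.10-fold higher (adjusted p = 0.0416). Of the other genes tested, Bcl11b differed by 1.38, Gata3 by 0.53, Tcf3 by 0.40 and Tcf12 by 0.21 on the log2 scale. Il7r differed by -0.23 and Lef1 by -1.07. None of these passed (adjusted p = 0.178 to 0.892, limma). The median difference of the 11 was 1.38 on the log2 scale, beside 0.02 over all genes, but 0.53 over 13 genes with no filter, 0.31 with the stricter filter, 0.68 with arrays weighted and 0.78 with the mean of each gene's probe sets. Il2ra, Notch3 and Dtx1 passed the filter only through their ICN2-positive arrays. Rag1 and Rag2, the recombinase genes that assemble the beta chain, failed the filter, and Rag1 read 4.53 to 5.00 in ICN2-positive and 4.75 to 7.15 in ICN2-negative samples. The count that rose was 3 without ICN2-positive replicate 2 or ICN2-negative replicate 1 or 2, and 2 without ICN2-negative replicate 3. It was also 3 with the replicate number as a block.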

How the data were processed

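Expression was measured on 6 Affymetrix arrays from 5 ng of amplified total RNA per sample, per the labels' protocols. The authors deposited 1 linear intensity per probe set and array, made with RMA per the submitters' processing notes (version not given in the sources used here). RMA equalises the arrays, so a change in total RNA would not be seen. Depth does not apply to arrays, whose number limits precision. Of 45101 probe sets, 64 controls were left out, and 34958 had 1 gene by the platform annotation, 932 several and 9211 none.

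Log2 was taken here. Groups were compared with limma 3.58.1 under R 4.3.3, using lmFit and eBayes with no covariate, ICN2-positive minus ICN2-negative, with Benjamini-Hochberg adjustment over 27424 probe sets for members. Other genes were read by their probe set of highest mean and adjusted over 12837 genes. The fit was tested on simulated data. The members, lists and tests were chosen with earlier results of these data known. Named genes were all members, up to 4 called genes per pathway list (otherwise the smallest p), the brightest of each marker list and the 3 nearest in pattern for members ranging over more than 2 log2 units; other names were chosen after their values were seen. Alternatives covered filter, normalization, an offset of 32, how variance was modelled, weighting of arrays, which probe sets stand for a gene, the replicate number, the threshold and leaving out each array.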

Additional observations from a re-analysis of the deposited data

How the results depend on the processing

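Over the alternatives, 143 estimates of member differences stayed the same, 4 newly passed and 1 turned its sign. For the 8 tested probe sets, the same means the same direction and side of the threshold. The 5 probe sets not tested entered only with no filter, where their difference is the same by construction. Lat passed with an intensity trend, with weighted arrays and at an adjusted p of 0.1, and Cd7 with array weights. The difference of the brightest Cd247 probe set was -0.038 with array weights against 0.36 as reported, with neither called. The number of members that passed was 0 as reported, 1 with an intensity trend, 2 with array weights, 1 at an adjusted p of 0.1, and 0 with each array left out. The number of all probe sets that passed was 728 as reported, 1216 with an intensity trend, 3970 with array weights, 268 with the replicate number as a block, 2376 at an adjusted p of 0.1, and 95 to 860 with 1 array left out. The replicate block changed no member's call. Deviations of same-numbered arrays correlated at 0.183, 0.101 and 0.0945, not all over 0.1, and not every array correlated best with its own number, so the numbers were not taken as pairs. A recount of the pathway lists under each alternative, chosen after seeing the data, gave proximal signalling genes 9 higher and 4 lower with array weights, 7 and 1 at an adjusted p of 0.1, and 1 to 6 higher with 1 array left out. Coreceptor genes were 2 higher and 2 lower with array weights, 2 lower at an adjusted p of 0.1, and 0 to 2 higher with 1 array left out. Early T lineage genes that rose were 7 with array weights, 2 with the stricter filter, 3 with the replicate block and 2 to 5 with 1 array left out. The causes were not tested. Signal limits the readings of Ptcra, of 3 Cd247 probe sets and of the dimmer Zap70 probe sets. It also limits those of Cd3d, Cd3e and Cd3g in ICN2-negative cells. All of these lay near or below the filter's limit.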
